A study of Mus musculus with 6 samples.

Results

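This account describes 9 CXC chemokine genes and the atypical chemokine receptor gene Ackr3 in podoplanin-positive cancer-associated fibroblasts (pCAFs) of a mouse mammary tumour. The 10 genes were taken by name from the deposited table, which holds 12235 genes, and all 10 were found and passed the filter on low values. They were Cxcl1, Cxcl2 and Cxcl5 (the ELR group), Cxcl9 and Cxcl10 (interferon-inducible), Cxcl12, Cxcl13 and Cxcl14 (homeostatic), Cxcl16, and Ackr3.

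There were 3 libraries of Ly6C+ pCAFs and 3 of Ly6C- pCAFs. Both groups came from primary tumours in BALB/c females that were injected at 8 weeks of age with 100000 4T1 cells, a BALB/c mammary carcinoma line, in the mammary fat pad. The labels call the injected line 4T1-GFP in one place and 4T1-luc in another. Both groups were sorted as living cells negative for Ter119, CD45 and EpCAM (erythroid, immune and epithelial surface markers) and positive for PDPN, and differed in the gate on the surface protein Ly6C. The labels do not say whether a library is 1 mouse or a pool of mice, so the p-values measure the spread between these libraries, which may be technical.

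Chemokines are small secreted proteins that direct the migration of leukocytes through G protein-coupled receptors, and the CXC family is named for the spacing of its first cysteines. Members with the residues Glu-Leu-Arg (ELR) before that motif act mainly on CXCR2 and attract neutrophils. CXCL9 and CXCL10 are induced by interferons and attract activated T cells and natural killer cells through CXCR3. CXCL12, CXCL13 and CXCL14 are made constitutively in many tissues and place leukocytes within them. ACKR3 binds CXCL12 without G protein signalling and removes it by internalisation.

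Values are normalised counts, the authors' read counts divided by 1 size factor per library, from 3′ end mRNA libraries of 2150531 to 2818269 reads (Ly6C+) and 1176909 to 1721480 reads (Ly6C-). Log2 fold changes are Ly6C+ minus Ly6C-, from limma on log2(value + 1) over 9646 genes with a mean of at least 5, and understate the change of genes with low values. A gene passed at a Benjamini-Hochberg adjusted p under 0.05. The gate followed the labels, since Ly6c1 stood at 3849, 3142 and 2316 in Ly6C+ and at 88.6, 77.4 and 65.6 in Ly6C- libraries. Fibroblast genes were present throughout (summed level of the 10 listed 67779 to 76553 in Ly6C+ and 46904 to 61024 in Ly6C-), and Epcam reached at most 2.95. These 10 fibroblast genes were not level between the groups, as 5 were higher and 1 lower in Ly6C+. Among all tested genes 9.41% were higher and 7.66% lower. Ly6C+ replicate 1 stood apart in granulocyte genes, with S100a8 at 179 and S100a9 at 478, against at most 4.51 for either gene in the other 5 libraries.

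The ELR ligands, Cxcl12, Cxcl13 and Ackr3 were higher in Ly6C+ pCAFs, and the interferon-inducible ligands were lower. Of the 10 genes, 6 rose (Cxcl1, Cxcl2, Cxcl5, Cxcl12, Cxcl13 and Ackr3), 2 fell (Cxcl9 and Cxcl10) and 2 did not pass (Cxcl14 and Cxcl16). Of all genes tested, 9.41% were higher and 7.66% lower by the same test. Cxcl13 passed the filter on low values only through its Ly6C+ libraries. All 6 genes that rose had every Ly6C+ library above every Ly6C- library, as did 17.1% of all tested genes. Both genes that fell had every Ly6C+ library below, as did 16.1% of all tested genes. In edgeR's quasi-likelihood test on whole reads recovered from the deposited values (100% of values within 0.001 of a whole number of reads) the same counts of 6 and 2 passed, against 9.59% of all genes higher and 8.25% lower (925 and 796 genes). The count of 6 stood at 5 without Ly6C- replicate 2. The count of 2 fell to 0 without Ly6C+ replicate 3 or Ly6C- replicate 1, and to 1 without Ly6C+ replicate 1 or Ly6C- replicates 2 or 3.

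**Figure D1:**
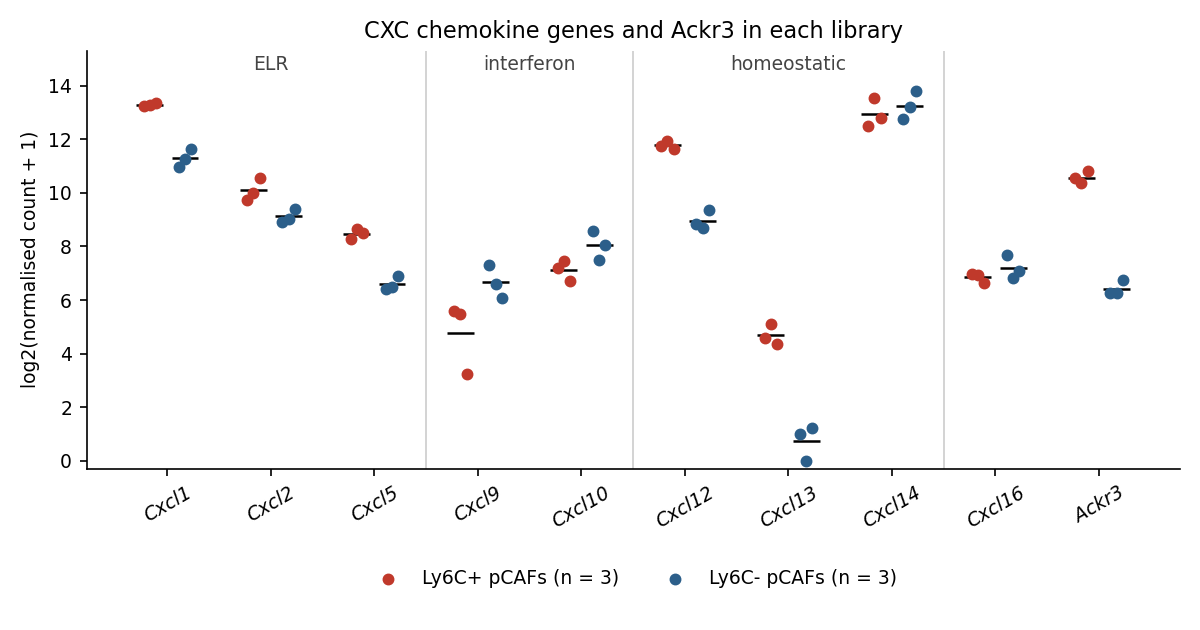
The vertical axis gives log2(normalised count + 1) of each gene in each of the 3 Ly6C+ (red, left) and 3 Ly6C- libraries (blue, right), with a bar at the group mean. Cxcl1, Cxcl2, Cxcl5, Cxcl12, Cxcl13 and Ackr3 lie wholly above in Ly6C+ libraries, Cxcl9 and Cxcl10 wholly below, and Cxcl14 and Cxcl16 overlap.

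Cxcl1, which encodes the neutrophil chemoattractant KC, is on chromosome 5 (90891241 to 90893115, plus strand, mm10, protein coding). It stood at 9622, 9845 and 10570.3 in Ly6C+ libraries, against 1977, 2484 and 3169 in Ly6C- libraries. The Ly6C+ libraries lay close together and far above the highest Ly6C- library, and the ratio of means was 3.94 (log2 fold change 2.00, SE 0.20; limma adjusted p = 4.55e-05).

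Cxcl5 encodes LIX, another CXCR2 ligand, and lies on the same chromosome (90759360 to 90761624, plus strand). Its values were 311, 401 and 362 in Ly6C+ libraries, against 83.7, 89.3 and 118 in Ly6C- libraries. The groups were well apart, with a ratio of means of 3.69 (log2 fold change 1.88, SE 0.19; limma adjusted p = 5.16e-05).

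Cxcl2 encodes MIP-2, also a CXCR2 ligand (chromosome 5, 90903871 to 90905938, plus strand). It stood at 848, 1029.8 and 1489 in Ly6C+ libraries, against 485, 521 and 674 in Ly6C- libraries. The ratio of means was 2.00 (log2 fold change 0.98, SE 0.22; limma adjusted p = 0.0105), and its call ended without Ly6C- replicate 2 (adjusted p = 0.0514). Neutrophils also make Cxcl2. Granulocyte markers (6 of 8 genes in the table) summed to 753, 13.5 and 9.27 in Ly6C+ libraries, against 8.86, 5.10 and 5.24 in Ly6C- libraries, and their part in the Cxcl2 result was not tested.

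Ratios within a library do not depend on the scaling between libraries. The ratio of Cxcl1 to Cxcl2 was 11.3, 9.56 and 7.10 in Ly6C+ libraries, against 4.08, 4.76 and 4.70 in Ly6C- libraries, so the groups did not overlap. The ratio of Cxcl1 to Cxcl5 was 28.2 ± 3.32 in Ly6C+ and 26.1 ± 2.19 in Ly6C- libraries (SD, n = 3 each), and the groups overlapped. An exact two-sided permutation test of 3 libraries against 3 cannot give a p below 0.1, so none of these ratios, of which 7 were computed, can pass a threshold of 0.05.

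The promoters of Cxcl1 and Cxcl2 are shown because both ELR genes rose, those of Cxcl9 and Cxcl10 because they went the other way, and that of Ackr3 because it had the largest log2 fold change of the 10 in limma. Each runs from 250 to 31 bases before the RefSeq start (GRCm38.p6), in the direction of the gene. Capitals mark matches, on either strand, to GGG, any 3 bases, then TTCC (an NF-kB-like motif); GAAA, any 2 bases, then GAAA (like the interferon-stimulated response element); TTC, any 3 bases, then GAA (STAT-like); or TGTGGT (RUNX-like).
Cxcl1: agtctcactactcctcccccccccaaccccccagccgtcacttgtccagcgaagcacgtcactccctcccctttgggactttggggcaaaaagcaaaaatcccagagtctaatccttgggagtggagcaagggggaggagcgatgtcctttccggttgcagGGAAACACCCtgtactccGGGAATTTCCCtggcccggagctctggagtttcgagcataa
Cxcl2: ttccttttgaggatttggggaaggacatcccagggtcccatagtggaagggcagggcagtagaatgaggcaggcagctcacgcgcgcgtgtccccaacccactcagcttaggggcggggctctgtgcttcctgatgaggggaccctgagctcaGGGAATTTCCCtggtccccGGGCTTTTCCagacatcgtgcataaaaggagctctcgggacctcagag
Cxcl9: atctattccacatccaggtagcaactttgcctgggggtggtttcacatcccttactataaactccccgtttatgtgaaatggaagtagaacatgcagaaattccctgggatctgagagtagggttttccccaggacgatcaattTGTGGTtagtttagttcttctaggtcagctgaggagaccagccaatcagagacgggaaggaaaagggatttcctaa
Cxcl10: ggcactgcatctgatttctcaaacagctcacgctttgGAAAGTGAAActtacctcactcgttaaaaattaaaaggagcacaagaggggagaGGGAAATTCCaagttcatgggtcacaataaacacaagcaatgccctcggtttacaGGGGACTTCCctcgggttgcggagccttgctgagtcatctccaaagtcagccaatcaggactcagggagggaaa
Ackr3: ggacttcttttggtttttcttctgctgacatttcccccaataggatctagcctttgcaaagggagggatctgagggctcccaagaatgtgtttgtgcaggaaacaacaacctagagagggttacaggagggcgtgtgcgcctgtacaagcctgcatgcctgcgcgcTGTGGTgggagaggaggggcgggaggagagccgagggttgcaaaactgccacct

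These windows are chr5:90890995-90891214 (Cxcl1, plus strand), chr5:90903649-90903868 (Cxcl2, plus), chr5:92328110-92328329 (Cxcl9, minus), chr5:92348920-92349139 (Cxcl10, minus) and chr1:90203730-90203949 (Ackr3, plus). Motifs were searched over the whole RefSeq window of 300 bases, from 250 before to 50 after the start, for the 8 genes of the 10 that the table of promoters holds (Cxcl5 and Cxcl16 were not matched). The Cxcl1 and Cxcl2 promoters share the run GGGAATTTCCCTGG, at -71 to -58 in Cxcl1 and -97 to -84 in Cxcl2, which holds the NF-kB-like motif on both strands in overlap. The NF-kB-like motif was present in Cxcl1, Cxcl2 and Cxcl10 and in 5.56% of 32851 promoters. The interferon-element-like motif was present in Cxcl10 and Cxcl14 (3.44% of promoters), the STAT-like motif in Cxcl14 (8.3%), and the RUNX-like motif in Ackr3 and Cxcl9 (16.8%). The windows of Cxcl12 and Cxcl13 held none of the 4. The NF-kB-like motif thus stood in genes that rose and in one that fell.

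Cxcl9, the T-cell chemoattractant MIG (chromosome 5, 92321347 to 92328079, minus strand), stood at 47.6, 43.6 and 8.50 in Ly6C+ libraries, against 158, 97.0 and 65.6 in Ly6C- libraries. All Ly6C+ values were below the lowest Ly6C- value, but Ly6C+ replicate 3 lay far under the other two of its group. The log2 fold change was -1.89 (SE 0.55; limma adjusted p = 0.0366). It was -1.12 without Ly6C+ replicate 3, and the call ended there and without Ly6C- replicates 1 or 2 (adjusted p = 0.0535, 0.0782 and 0.0999).

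Cxcl10, which encodes IP-10 (chromosome 5, 92346638 to 92348889, minus strand), stood at 144, 177 and 104 in Ly6C+ libraries, against 382, 181 and 264 in Ly6C- libraries. The groups were separate by a narrow margin, between Ly6C+ replicate 2 and Ly6C- replicate 2. The log2 fold change was -0.93 (SE 0.28; limma adjusted p = 0.0421). The call ended without Ly6C+ replicates 1 or 3 or Ly6C- replicates 1 or 3 (adjusted p = 0.108, 0.141, 0.112 and 0.0639). Cxcl10 lies inside the gene Art3 on the opposite strand. The handling of strand is not given in the sources used here, so reads of the pair may be mixed. Art3 itself did not pass (log2 fold change 0.31, SE 0.46; limma adjusted p = 0.728).

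Markers of other cells stood beside the fall of Cxcl9 and Cxcl10. Macrophages and endothelium are known sources of both ligands. Beside the marker counts below, 9.41% of all tested genes were higher and 7.66% lower. Summed macrophage markers (11 of 12 genes in the table) were at 149 to 381 in Ly6C+ and 59.0 to 198 in Ly6C- libraries, with Ptprc, the gene of CD45, at most 4.88 in Ly6C+ and at 0 in every Ly6C- library. Of 7 macrophage markers tested, 1 passed, Lyz2, which was higher in Ly6C+ (264, 98.5 and 27.0, against 25.6, 1.70 and 3.93 in Ly6C- libraries). Lymphocyte markers (2 of 9 in the table) summed to 89.4 to 165 in Ly6C+ and 15.7 to 28.5 in Ly6C- libraries. Cd3e led this sum in every library and was higher in Ly6C+ (log2 fold change 2.86, SE 0.30, limma adjusted p = 6.45e-05). Cd79b, the other marker, was under the filter and went the other way. It had 2 reads in Ly6C+ and 15 in Ly6C- libraries, without overlap between the groups. Summed endothelial markers (6 of 11 in the table) were at 21.8 to 43.3 in Ly6C+ and 51.1 to 143 in Ly6C- libraries, with Pecam1 at most 4.25 and Kdr, which led the Ly6C- sum in replicates 1 and 2, at 4.51 to 8.54 in Ly6C+ and 10.5 to 94.4 in Ly6C- libraries. The endothelial list did not move one way, since Kdr, Egfl7 and Flt4 were lower in Ly6C+ and Tek was higher (18.5 ± 6.34 in Ly6C+ and 1.16 ± 1.34 in Ly6C- libraries, SD, n = 3 each). Egfl7, Flt4 and Tek passed the filter only through the group where they were high. Keratins and other epithelial markers (10 of 10) summed to 15.2 to 48.7 in Ly6C+ and 119 to 377 in Ly6C- libraries. Of 4 epithelial markers tested, 2 were lower in Ly6C+, Krt14 and Krt19, and 2 did not pass. Krt14 and Krt19 passed the filter only through the Ly6C- group. Pericyte and smooth muscle markers (8 of 8) summed to 190.3 to 246 in Ly6C+ and 604 to 1109 in Ly6C- libraries, where Cspg4 and Des led the sum in every Ly6C- library. Of 7 tested, 5 were lower in Ly6C+ and Kcnj8 was higher, by 1.98 on the log2 scale (SE 0.26; limma adjusted p = 0.000367). The part of these cells in the result was not tested, and in bulk libraries fewer cells of a type and less RNA per cell cannot be told apart.

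**Figure D2:**
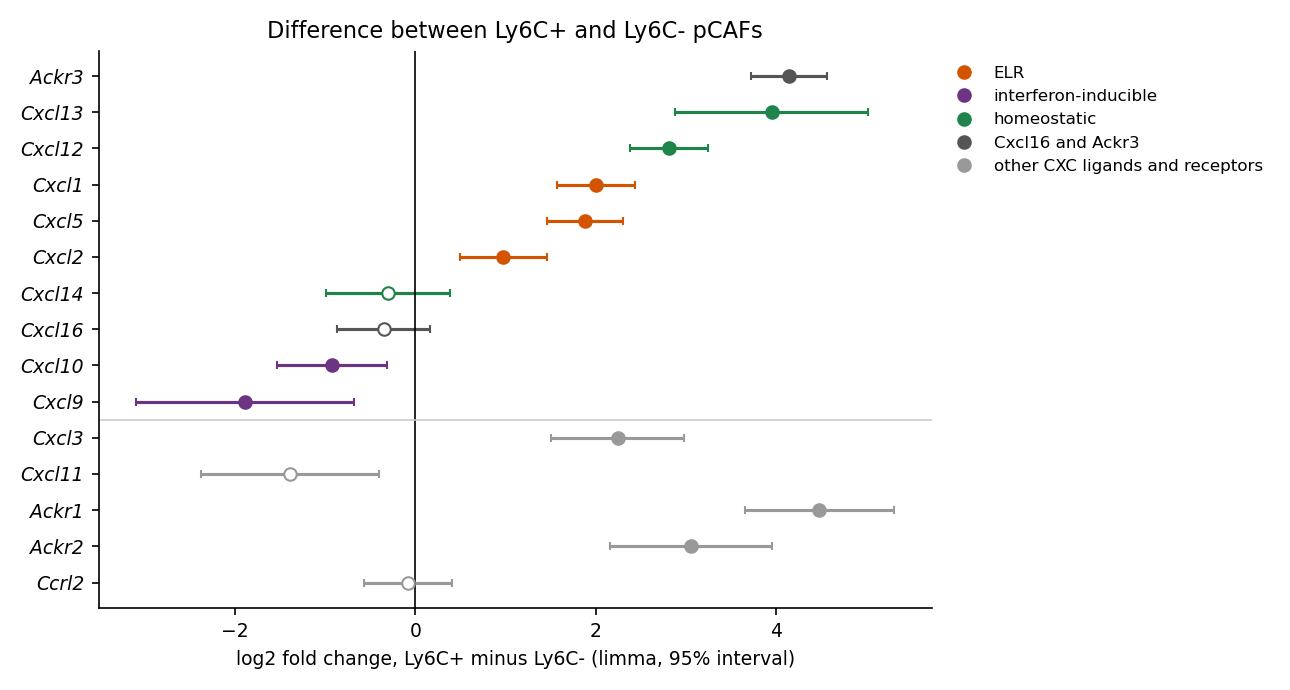
The horizontal axis gives the log2 fold change (Ly6C+ minus Ly6C-) with its 95% interval from limma for the 10 genes (above the line) and for the other CXC ligand and chemokine receptor genes that were tested (below it). Filled points passed at an adjusted p under 0.05, and the values run from 4.14 for Ackr3 to -1.89 for Cxcl9 among the 10.

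Cxcl12 encodes SDF-1, the ligand of CXCR4 and ACKR3 (chromosome 6, 117168535 to 117181367, plus strand). It stood at 3417, 3865 and 3192 in Ly6C+ libraries, against 452, 407 and 653 in Ly6C- libraries. The groups were far apart, with a ratio of means of 6.93 (log2 fold change 2.82, SE 0.20; limma adjusted p = 4.17e-06).

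Cxcl13, the B-cell chemoattractant that acts on CXCR5 (chromosome 5, 95956951 to 95961068, plus strand), was detected almost only in Ly6C+ pCAFs. It stood at 23.2, 33.8 and 19.3 in Ly6C+ libraries, against 0.984, 0 and 1.31 in Ly6C- libraries, which is 108 reads against 2. The ratio of read rates was 37.4, with an exact 95% counting interval of 10.1 to 313 (limma log2 fold change 3.96, SE 0.49; adjusted p = 0.000202). Because the Ly6C- group held 2 reads, the fitted size depends on the constant added before the log, and was 2.38 with 5 added and 5.21 in DESeq2. The interval covers counting error only. Cxcl13 passed the filter only through the Ly6C+ group, as its mean in Ly6C- libraries was 0.77, under the cut of 5.

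Cxcl14, a chemokine of skin and mucosa whose main receptor is still debated (chromosome 13, 56288643 to 56296551, minus strand), did not pass. It stood at 5718, 11981 and 7082 in Ly6C+ libraries, against 6928, 9316 and 14164 in Ly6C- libraries. The groups overlapped and each spread widely. The log2 fold change was -0.30 with a 95% interval of -0.99 to 0.38 (limma adjusted p = 0.588). The homeostatic group therefore did not move as one, and the ratio of Cxcl12 to Cxcl14 was 0.457 ± 0.138 in Ly6C+ and 0.0517 ± 0.0118 in Ly6C- libraries (SD, n = 3 each), without overlap.

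Cxcl16 encodes a transmembrane chemokine that binds CXCR6 (chromosome 11, 70453983 to 70459984, minus strand, overlapping Zmynd15 on the other strand). It stood at 123, 122 and 98.9 in Ly6C+ libraries, against 206, 111 and 135 in Ly6C- libraries. The groups overlapped, and the log2 fold change was -0.35 with a 95% interval of -0.87 to 0.16 (limma adjusted p = 0.369).

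Ackr3 (chromosome 1, 90203980 to 90216751, plus strand) had 1491, 1302 and 1792 in Ly6C+ libraries, against 74.8, 76.6 and 106 in Ly6C- libraries. Every Ly6C+ library lay far above every Ly6C- library, and the ratio of means was 17.8 (log2 fold change 4.14, SE 0.19; limma adjusted p = 3.63e-07). The ligand and its scavenger thus rose in the same libraries but by unequal amounts. The ratio of Cxcl12 to Ackr3 was 2.29, 2.97 and 1.78 in Ly6C+ libraries, against 6.04, 5.32 and 6.15 in Ly6C- libraries, without overlap.

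Within each library the mean log2 level of the ELR group exceeded that of the interferon-inducible group by 4.03, 4.17 and 5.83 in Ly6C+ libraries, against 0.81, 1.87 and 2.26 in Ly6C- libraries. The difference of these group means was 3.03. The homeostatic group exceeded the interferon-inducible group by 3.21, 3.72 and 4.61 in Ly6C+ libraries, while the values in Ly6C- libraries were -0.43, 0.22 and 1.07. The difference of these group means was 3.56, and 2.93 with a pseudocount of 5. Each gene weighs equally in these levels, including Cxcl13 with 2 reads in Ly6C- libraries. The ELR and homeostatic groups kept closer to each other, with ELR above homeostatic by 0.82 ± 0.38 in Ly6C+ and 1.36 ± 0.25 in Ly6C- libraries (SD, n = 3 each), and the groups overlapped. These are levels on the log2(value + 1) scale and carry no test, since the genes were chosen with earlier results of these data known.

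Reads on the 11 genes named Cxcl in the table made up 1.18% to 1.60% of each Ly6C+ library and 0.741% to 1.25% of each Ly6C- library, so the groups overlapped in their sum. Their make-up differed. Cxcl1 took 35.8% to 47.4% of these reads in Ly6C+ libraries, against 16.5% to 18.8% in Ly6C- libraries. Cxcl12 took 13.9% to 16.9% in Ly6C+ libraries, against 3.08% to 4.22% in Ly6C- libraries. Cxcl14 took 28.2% to 43.5% in Ly6C+ libraries and 64.7% to 73.5% in Ly6C- libraries. Cxcl12, Cxcl13 and Cxcl14 together took 44.8% to 57.7% in Ly6C+ libraries and 69.0% to 76.9% in Ly6C- libraries. Cxcl9 and Cxcl10 together took 0.488% to 0.944% in Ly6C+ libraries and 1.71% to 5.05% in Ly6C- libraries. These are shares of 3′ end reads, not of protein.

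**Figure D3:**
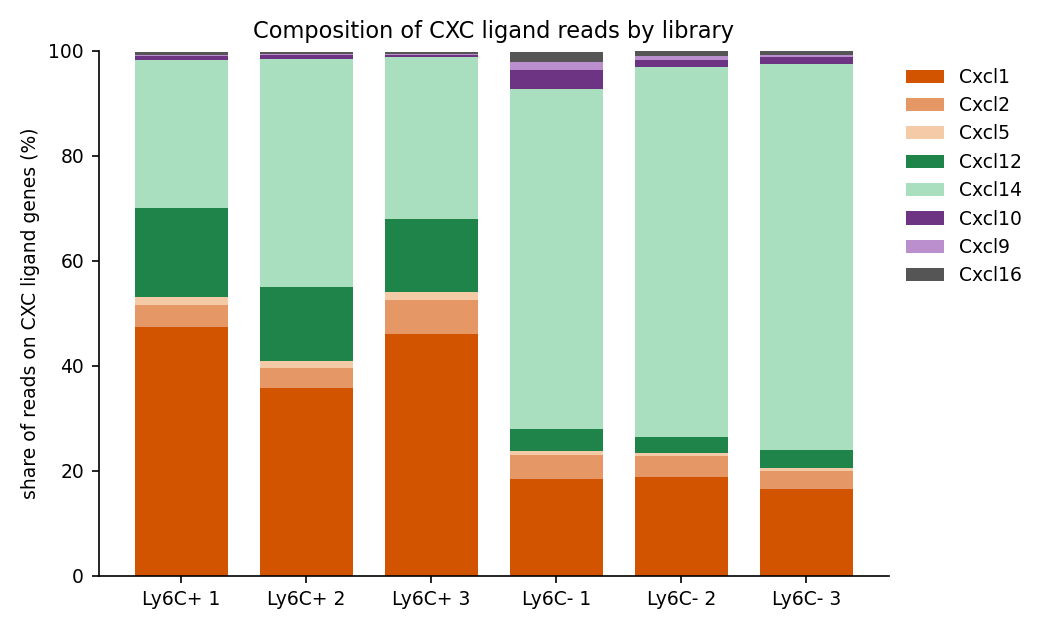
Each bar is a library, and its segments are the share (%) of the reads on the 11 Cxcl genes that fell on each of 8 of them. Cxcl1 and Cxcl12 take larger shares in the 3 Ly6C+ libraries, and Cxcl14 takes 64.7% to 73.5% in the 3 Ly6C- libraries.

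Of the other CXC ligands, 6 were listed and 2 were in the table and tested. Cxcl3, an ELR ligand of CXCR2, rose (28.3 ± 5.90 in Ly6C+ and 5.22 ± 1.46 in Ly6C- libraries, SD, n = 3 each), with a log2 fold change of 2.24 (SE 0.33; limma adjusted p = 0.000778). Cxcl11, an interferon-inducible CXCR3 ligand that the annotation classes as a polymorphic pseudogene, stood at 3.05, 6.01 and 5.41 in Ly6C+ libraries, against 23.6, 8.51 and 13.1 in Ly6C- libraries. It did not pass (log2 fold change -1.39, SE 0.45; limma adjusted p = 0.0572), but passed without Ly6C- replicate 2 and in edgeR, among others. It was named after its values were seen. Pf4, Ppbp, Cxcl15 and Cxcl17 were not among the genes in the table under these names.

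The ELR genes and the interferon-inducible genes each lie in a cluster on chromosome 5. Cxcl5, Cxcl3, Cxcl1 and Cxcl2 lie in this order over 147 kb on the plus strand. All 4 rose, where 9.41% of all tested genes were higher and 7.66% lower. Within 150 kb of that span no other gene was tested. Cxcl9, Cxcl10 and Cxcl11 begin 1415 kb further on, on the minus strand. Among 7 genes tested in that neighbourhood, Cxcl9 and Cxcl10 fell and Naaa, a lysosomal lipid amidase gene at -63.7 kb from Cxcl9 between their lower coordinates, rose (log2 fold change 1.43, SE 0.21; limma adjusted p = 0.000800), while Sdad1, Art3, Cxcl11 and Nup54 did not pass. Naaa and the genes that did not pass were named after their values were seen. Although the ELR genes are related in sequence, the last 500 bases of their annotated transcripts shared no run of 40 bases.

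**Figure D4:**
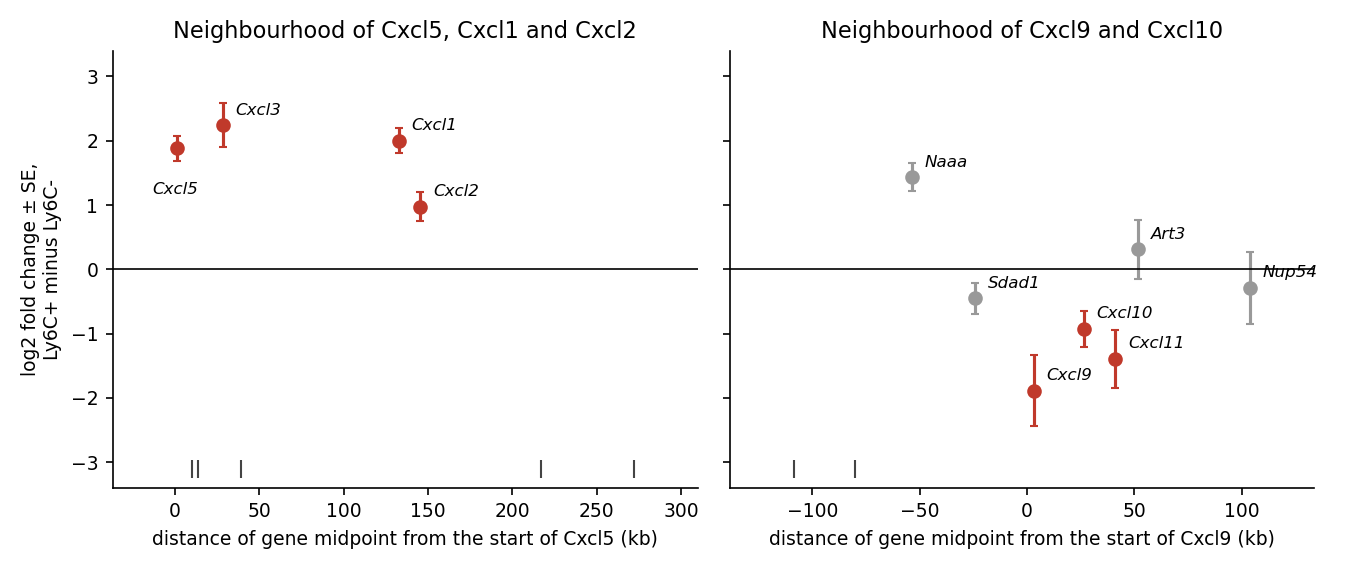
The vertical axis gives the log2 fold change (Ly6C+ minus Ly6C-) ± SE of tested genes, and the horizontal axis the distance in kb from the start of Cxcl5 (left) or Cxcl9 (right), with Cxcl genes in red, other genes in grey and untested genes as ticks. The 4 ELR genes lie above 0 and the 3 interferon-inducible genes, of which Cxcl11 did not pass, below it.

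The signalling receptors of these ligands were close to undetected in both groups. Cxcr4, the receptor of CXCL12, had 8 reads in Ly6C+ and 9 in Ly6C- libraries together. Cxcr2 had 8 reads, all in Ly6C+ replicate 1, where the granulocyte markers were highest, and Cxcr3 had 1 read, in Ly6C- replicate 3. Cxcr6 had no read in Ly6C+ libraries and 19 in Ly6C- libraries, with values of 1.97, 2.55 and 18.4. None of these 4 reached the filter, and Cxcr1 and Cxcr5, the gene of the CXCL13 receptor, were not in the table under these names.

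Of 10 listed receptor genes, 8 were in the table and 3 were tested, of which 2 atypical receptors, Ackr1 and Ackr2, rose. Of all tested genes, 9.41% were higher and 7.66% lower. Ackr1, the Duffy antigen receptor, which binds inflammatory CXC and CC chemokines, stood at 145, 76.7 and 76.5 in Ly6C+ libraries, against 4.92, 1.70 and 3.93 in Ly6C- libraries. The groups were far apart (log2 fold change 4.48, SE 0.38; limma adjusted p = 1.36e-05). Ackr2, a scavenger of inflammatory CC chemokines, stood at 23.2, 19.5 and 21.6 in Ly6C+ libraries, against 0.984, 1.70 and 2.62 in Ly6C- libraries (log2 fold change 3.06, SE 0.41; limma adjusted p = 0.000362). Ackr1 and Ackr2 passed the filter only through the Ly6C+ group. Their means in Ly6C- libraries were 3.52 and 1.77, under the cut of 5. Ackr4, a scavenger of homeostatic CC chemokines, was under the filter at 22 reads in Ly6C+ and 2 in Ly6C- libraries (ratio of read rates 7.62, exact 95% counting interval 1.87 to 66.9). Ccrl2, a non-signalling chemerin receptor, did not pass (46.1 ± 8.47 in Ly6C+ and 48.5 ± 5.43 in Ly6C- libraries, SD, n = 3 each). Ackr4 and Ccrl2 were named after their values were seen. Ackr1 is also known from venular endothelium, whose markers went both ways, as given above, and their part in the Ackr1 result was not tested.

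Genes that process these ligands or couple their receptors mostly did not pass. Of 10 tested, 0 rose and 1 fell at the adjusted threshold (limma), close to the 9.41% higher and 7.66% lower of all tested genes. The one that fell was Mmp9, a gelatinase gene that cleaves several chemokines (38.8 ± 9.71 in Ly6C+ and 497 ± 49.4 in Ly6C- libraries, SD, n = 3 each; log2 fold change -3.67, SE 0.21; limma adjusted p = 1.28e-06). Dpp4, chosen after its values were seen, encodes a peptidase that trims CXCL12 and CXCL10. It was under the filter, with 40 reads in Ly6C+ and 1 in Ly6C- libraries (ratio of read rates 27.7, exact 95% counting interval 4.70 to 1122).

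NF-kB induces the ELR ligands and interferon signalling induces Cxcl9 and Cxcl10, so genes of both responses were set beside them. The part of either response in the changes of these ligands was not tested. Of 16 NF-kB feedback and target genes, 9 rose, 0 fell and 7 did not pass, where 9.41% of all tested genes were higher and 7.66% lower, with a median log2 fold change of 0.80, against -0.00070 for all tested genes. Nfkbia, the inhibitor that NF-kB induces, stood at 5280.4 ± 646 in Ly6C+ and 2319 ± 271 in Ly6C- libraries (log2 fold change 1.19, SE 0.17; limma adjusted p = 0.000655). The monocyte chemoattractant gene Ccl2 (log2 fold change 2.00, SE 0.20), the adhesion gene Vcam1 (1.41, SE 0.19) and Birc3, an inhibitor of apoptosis (1.26, SE 0.18), also rose. These 4 passed without each library in turn.

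Of 24 interferon response genes tested, 5 fell, 0 rose and 19 did not pass, where 7.66% of all tested genes were lower and 9.41% higher, with a median log2 fold change of -0.64, against -0.00070 for all tested genes. The ubiquitin-like modifier gene Isg15 stood at 283 ± 19.9 in Ly6C+ and 649 ± 103 in Ly6C- libraries (log2 fold change -1.18, SE 0.17; limma adjusted p = 0.000557). The interferon-gamma-induced GTPase gene Igtp stood at 131, 149.6 and 88.1 in Ly6C+ libraries, against 547, 245 and 345 in Ly6C- libraries (log2 fold change -1.57, SE 0.29; limma adjusted p = 0.00303). Both passed without each library in turn. Ifit3, an antiviral effector gene, and Cd274, which encodes PD-L1, fell too (log2 fold changes -1.18, SE 0.28, and -1.51, SE 0.40). Ifit3 lost its call without 2 and Cd274 without 3 of the 6 libraries, each left out in turn. The count of 5 was 3 without Ly6C+ replicates 1 or 3 or without Ly6C- replicate 2.

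**Figure D5:**
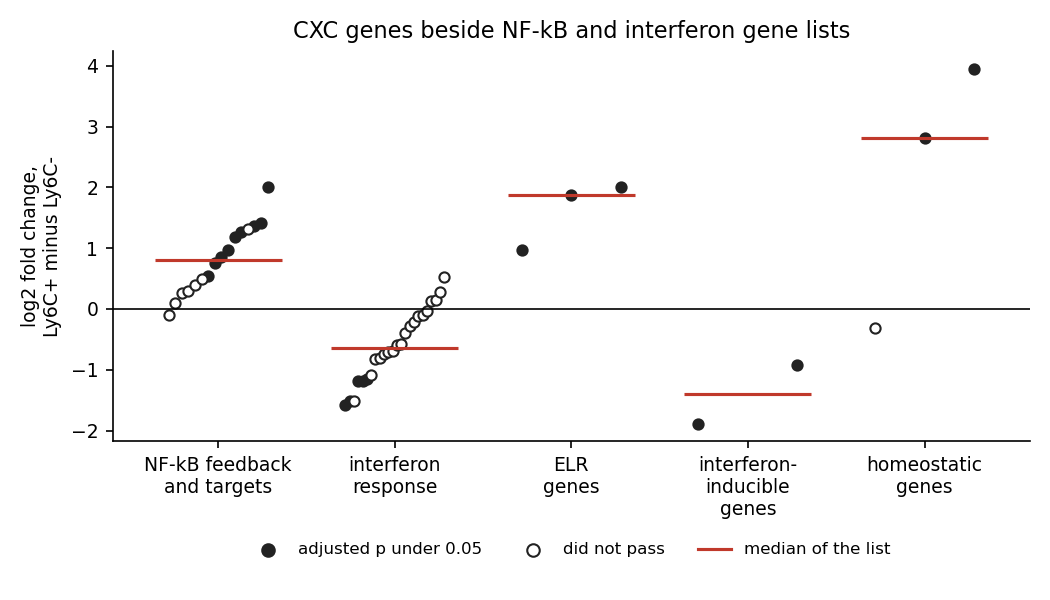
Each point is the log2 fold change (Ly6C+ minus Ly6C-) of a tested gene in the NF-kB list, the interferon list or a CXC group, filled where it passed at an adjusted p under 0.05, with a red line at the list's median. The medians were 0.80 for the NF-kB list and -0.64 for the interferon list.

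The genes whose level varied most like a CXC gene over the 6 libraries were found by the root mean square distance between log2 profiles, each centred on its own mean, among 6703 genes with a mean of at least 20. Nearest to Cxcl1 were Ugdh (distance 0.068), Tgfbr2 (0.086) and Cxcl5 (0.14), and nearest to Cxcl12 were Agtr1a (0.14), Mt2 (0.18) and Cdh13 (0.19). Nearest to Ackr3 were Sel1l3 (0.10), Cd34 (0.15) and Dpt (0.20), and nearest to Cxcl10 were Natd1, F830016B08Rik and Zfp428 (0.16, 0.16 and 0.17). With 2 groups of 3 libraries, the distance is led by the difference between the groups.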

How the data were processed

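RNA of sorted Ly6C+ and Ly6C- pCAFs was sequenced as 3′ end mRNA libraries, per the labels' protocols. The deposited signal values are normalised counts, in which the authors scaled each library's gene counts. The submitters' processing notes name bcl2fastq, STAR 2.4.2a, HTSeq and the mm10 build. Which program set the scaling, and how strand, molecular tags and gene filters were handled, is not given in the sources used here.

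Reads were recovered by dividing each library's values by its smallest step, which gave whole numbers for 100% of them (tolerance 0.001). Changes were tested with limma 3.58.1 in R 4.3.3, on log2(value + 1) with a mean-variance trend, over 9646 genes with a mean of at least 5. Benjamini-Hochberg adjustment covered all of these, at 0.05. Alternatives changed the pseudocount, filter, scaling, prior or threshold (0.01 and 0.1), blocked on replicate number, dropped 1 library at a time, or used edgeR 4.0.16 or DESeq2 1.42.0 on the recovered reads. Tested on simulated counts of this comparison (9646 genes), limma found 88 of 100 genes simulated at a 4-fold change and 41 of 100 at 2-fold, and 10 of its 139 calls were false.

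The 10 genes and all lists were chosen with earlier results of these data known. Named in the text were the 10 genes, up to 4 called genes of each list with the smallest p, the CXCR2 to CXCR6 genes, and the 3 nearest genes of Cxcl1, Cxcl10, Cxcl12 and Ackr3. Markers of other cells, and the others marked where they appear, were named after their values were seen. Gene coordinates came from GENCODE M21 and promoters from RefSeq (GRCm38.p6, the assembly called mm10). Protein sequences were not used here. One called gene of the interferon list is counted but not reported here by name. Python 3.11.15, pandas 2.3.3, scipy 1.17.1 and matplotlib 3.10.9 made tables and figures.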

Additional observations from a re-analysis of the deposited data

How the results depend on the processing

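Cxcl1, Cxcl5, Cxcl12 and Ackr3 passed in each of 21 alternatives and Cxcl13 in each of the 20 that could test it, and no gene of the 10 changed sign in any. The count of 6 that rose was 5 or 6 throughout, with 5 at a mean of at least 20, where Cxcl13 was not tested. Cxcl2 lost its call without Ly6C- replicate 2, at a threshold of 0.01 and without the trend (adjusted p = 0.0508). The 2 that fell were 0 without the mean-variance trend or at a threshold of 0.01, and 1 with a robust prior or in DESeq2, and ranged from 0 to 2 with a library left out. Cxcl9 had adjusted p from 0.00073 to 0.125 and Cxcl10 from 0.00768 to 0.141. ELR minus homeostatic differed between groups by -0.54, and by -0.0236 with a pseudocount of 5 (-0.73 to -0.35 with a library left out). Over all genes, 908 rose and 739 fell, against 558 and 401 at 0.01. Scaled to library totals, 725 rose and 1211 fell, with the median of all genes at -0.19, and the 10 genes kept counts of 6 and 2. Genes that rose numbered 609 to 987 and genes that fell 469 to 741 with a library left out, the 469 without Ly6C- replicate 2. Same-numbered libraries had correlations of deviations of 0.13, 0.05 and 0.17, each the highest for its library, which by itself does not establish pairing. The labels do not say whether same-numbered libraries came from the same tumours. With the replicate block 6 rose and 2 fell among the 10, 1118 and 970 over all genes, and 10 interferon genes fell in place of 5. In that limma fit the adjusted p was 0.00058 for Cxcl2, 0.0011 for Cxcl9 and 0.0228 for Cxcl10. Among the other alternatives the interferon count was 9 scaled to library totals, 8 in DESeq2 and at a threshold of 0.1, 6 with no filter, 4 without the trend or at a mean of at least 20, 2 at a threshold of 0.01, and 3 to 7 with a library left out. Depth limits what can be said of Cxcl13 in Ly6C- libraries and of Cxcr2, Cxcr3, Cxcr4, Cxcr6 and Ackr4, which had few reads.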
